A study of Mus musculus with 15 samples.

Results

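The 56 genes described here encode hnRNP proteins, SR proteins and other regulators of pre-mRNA splicing, and were taken by gene symbol from a listed set of splicing factors, of 16886 genes in the table of gene counts. With them came their 393 transcripts, of 54327 in the transcript table. The genes were measured by RNA sequencing of mouse bone macrophages, strain C57BL6J, in 3 genotypes: wild type (WT), a knockout of the lipoprotein receptor VLDLR (VLDLR_KO) and a knockout of the guidance receptor ROBO4 (ROBO4_KO). Cells of all groups were cultured for 14 days with 20 ng/ml of M-CSF, the growth factor that keeps macrophages alive and maturing, and each genotype had 5 libraries. How the knockouts were made is not in the labels, and neither is whether each replicate is a culture or animal of its own, so a p value here covers the spread among libraries, which may be technical. Sample codes had a digit either before the letter B (WT replicates 3 to 5, replicates 1 and 2 of each knockout) or after it (WT replicates 1 and 2, replicates 3 to 5 of each knockout), and the labels do not say what the 2 forms mean. Genotypes were therefore compared within each form and as the mean of both.

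Splicing removes introns from a primary transcript, and regulators bound to the RNA decide which splice sites the spliceosome uses. As background, SR proteins carry arginine-serine repeats and mostly favour use of a nearby exon, while hnRNP proteins coat nascent transcripts and often oppose it. The STAR protein QKI, encoded by Qk, binds introns and 3′ ends of messages, can promote the formation of circular RNAs and takes part in the maturation of monocytes into macrophages. The series title names QKI together with VLDLR and a circular RNA. Many of these proteins control their own messages through alternative exons that lead to decay, so transcripts were compared as well as genes.

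Promoter sequences are shown for 4 genes that the results below turn on, 1 that was lower in VLDLR_KO, 2 that were higher there, and 1 that was lower in ROBO4_KO. Each is the 250 bases before a transcription start in RefSeq (GRCm38.p6), written 5′ to 3′ on the gene's strand, and capitals mark matches on either strand to GGGCGG, the GC box bound by Sp and KLF factors, and to CCGGAAG, a core bound by ETS factors.
Qk, chr17:10319362-10319611, minus strand: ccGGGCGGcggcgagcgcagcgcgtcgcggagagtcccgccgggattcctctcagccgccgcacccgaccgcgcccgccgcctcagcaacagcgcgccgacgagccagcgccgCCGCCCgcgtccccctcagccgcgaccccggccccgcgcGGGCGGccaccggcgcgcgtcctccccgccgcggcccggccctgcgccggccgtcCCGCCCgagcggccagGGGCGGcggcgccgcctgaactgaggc
Hnrnpdl, chr5:100039223-100039472, minus strand: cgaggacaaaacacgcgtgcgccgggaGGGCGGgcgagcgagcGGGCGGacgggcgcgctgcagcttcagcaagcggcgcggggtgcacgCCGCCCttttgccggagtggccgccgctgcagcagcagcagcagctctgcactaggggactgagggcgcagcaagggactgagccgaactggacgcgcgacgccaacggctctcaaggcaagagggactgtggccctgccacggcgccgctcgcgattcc
Srsf4, chr4:131873387-131873636, plus strand: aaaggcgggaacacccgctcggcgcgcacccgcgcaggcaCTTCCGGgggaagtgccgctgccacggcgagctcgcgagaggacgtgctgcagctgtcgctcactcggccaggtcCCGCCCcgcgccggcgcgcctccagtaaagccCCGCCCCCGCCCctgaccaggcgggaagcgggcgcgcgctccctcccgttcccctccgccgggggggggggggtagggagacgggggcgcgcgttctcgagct
Srsf5, chr12:80945249-80945498, plus strand: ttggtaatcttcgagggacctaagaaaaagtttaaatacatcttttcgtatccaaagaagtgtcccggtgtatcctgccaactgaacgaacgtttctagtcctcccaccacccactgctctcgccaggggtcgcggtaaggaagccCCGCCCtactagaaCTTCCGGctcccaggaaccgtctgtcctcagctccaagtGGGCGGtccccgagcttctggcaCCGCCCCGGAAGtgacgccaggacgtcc
The Qk window was 84.8% G and C with 5 GC boxes and no ETS core. The windows of Hnrnpdl, Srsf4 and Srsf5 held 3 GC boxes each, and those of Srsf4 and Srsf5 held 1 and 2 ETS cores, of which 1 in Srsf5 overlaps a GC box. The start listed for Hnrnpdl lies inside the annotated gene, which RefSeq ends at 100039936, and the deposited table gives this gene the opposite strand. The table lists 3 starts for Srsf4, of which the first is shown. The windows of Srsf4 and Srsf5 also run past the start of the annotated gene, at 131873530 and 80945495 in RefSeq.

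Of the 56 genes, 49 had a promoter entry, with a median G and C content of 61.6% against 52% for all genes in the RefSeq table. A GC box was found within 250 bases of a start in 38 of the 49 (77.6%), against 35.4% of all 27025 genes and 56.6% of the 13239 that are also in the count table. CCAAT, the box bound by NF-Y, was found in 26 (53.1%, against 37.5% of all genes and 40% of those in the count table) and CCGGAAG in 7 (14.3%, against 7.83% and 12.9%). CACGTG, an E-box, was in 5 (10.2%, against 6.86% and 8.94%). The palindromic NRF1 site was in 1 (Srsf11) and TGACGTCA, the CREB site, in 1 (Tra2a), 2.04% each, against 0.877% and 1.77% of all genes and 1.53% and 2.69% of those in the count table. All motifs were searched on both strands, all starts of a gene counted, and matches are letters in these windows, not shown to be bound.

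Library totals ran from 18132866 to 19005966 estimated counts, and these genes took 0.691% (VLDLR_KO replicate 2) to 1.087% (VLDLR_KO replicate 3) of them. Neither targeted gene checks the labels, since Vldlr had 0.053 to 1.96 CPM (counts relative to the TMM-scaled library total) and Robo4 0 to 0.228 CPM, near 0 also in WT. Macrophage markers were high in every library. Their sum over 9 genes was higher in VLDLR_KO, at 18800 to 33900 CPM against 10800 to 17100 in WT and 12400 to 15000 in ROBO4_KO, but the mean log2 level of the same genes, which weighs each gene alike, was higher than in WT only before B (0.114 to 0.245 against -0.163 to -0.0675) and was lower after B (-0.124 to -0.00327 against 0.213 and 0.271). Markers of neutrophils, B cells, dendritic cells, mast cells, T and NK cells, osteoblasts and erythroid cells each summed to at most 54.9 CPM, with no marker in the table at 0 in every library, and those of fibroblasts to 2.89 to 217, osteoclasts to 20.9 to 307 and endothelium to 85.1 to 257 CPM. WT replicates 1 and 2 stood apart, with 856 and 944 CPM of the immediate-early gene Fos against 12.5 to 56.2 CPM elsewhere, and they are the only WT libraries with the digit after B. VLDLR_KO replicate 2 stood apart too, with the highest sum of FPKM (676957 against 532163 to 589384). Members named as called in VLDLR_KO against WT as the mean of both forms are also given without WT replicates 1 and 2. In bulk RNA, fewer cells of a type and less RNA per cell cannot be told apart.

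These regulators spanned about 3 orders of magnitude in the authors' FPKM, which is scaled by length and allows levels of different genes to be compared. Median FPKM over the 15 libraries was highest for Hnrnpf (212.9), Hnrnpk (196.4) and Hnrnpa2b1 (170.7), RNA-binding proteins that coat most nuclear transcripts. Next were the CUG-repeat binding regulator Mbnl1 (119.8), Hnrnpab (118.9) and Hnrnpc (113.7). Lowest were Rbfox2 (0.33), Mbnl3 (0.21) and the STAR gene Khdrbs3 (0.13), while Ptbp2, better known from neurons, had 4.15. Khdrbs3, at 0 to 0.723 CPM, was the member too low to be tested, which leaves 55 among 12198 genes tested.

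Macrophages of VLDLR_KO had more mRNA of many of these regulators than WT, and less Qk. As the mean of both forms, 19 of the 55 rose and 4 fell (adjusted p under 0.05 by edgeR over all genes tested, here called; 33 had an unadjusted p under 0.05). That is 41.8% of the members, against 26.0% of all genes called, 12.4% higher and 13.6% lower. Median log2 fold change was 0.18 over the members and 0.010 over all genes. Within forms the member median was 0.045 before B and 0.25 after B. Before B 29.09% of members were called, below the 33.2% of all genes, and after B 25.45%, above 13.4%. Groups were apart, with no overlap of libraries in either form, for 16 members on the higher side and 3 on the lower side, where 7.95% and 9.62% of all genes were. Without WT replicates 1 and 2, in a fit with additive terms for genotype and form, 8 members were called (16 in the additive fit with all libraries), where 10.9% of all genes were, and 8 when VLDLR_KO replicate 2 was left out as well (9.71% of all genes). Hnrnpdl, Hnrnpr, Ptbp2, Srsf4, Srsf5, Srsf11 and Qk were called in both of these fits, Tial1 only in the first and Hnrnph1 only in the second, and all but Srsf5 are among the 23. Leaving out WT replicate 1 alone left 12 calls, and WT replicate 2 alone 11. For counts with 1 library left out, by DESeq2 or under another alternative, the share of all genes called is not given unless stated. This holds here and below. Counts at an unadjusted p under 0.05, here and below, also come without the share of all genes or transcripts at that threshold. They are therefore not read as particular to the members.

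By family, 6 of 18 hnRNP genes rose and 1 fell, and 4 of 10 SR genes rose. Of all genes 12.4% were called higher and 13.6% lower. Of the 4 factors of the branch point and 3′ splice site 3 rose, and of the 3 TIA and ELAV genes 2 rose. Calls were also made upward for 2 of 4 RBM and helicase genes, 1 of 3 PTB genes and 1 of 3 SR-related genes. The falling genes were both tested STAR genes (Qk and Khdrbs1), 1 of 3 MBNL genes (Mbnl1) and Hnrnph2. No CELF, RBFOX or FET gene was called in this comparison. In the additive fit without WT replicates 1 and 2, 7 members were called higher and 1 lower (5.31% and 5.54% of all genes). Most of these families hold few genes, and the counts are not read as results about a family.

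**Figure D1:**
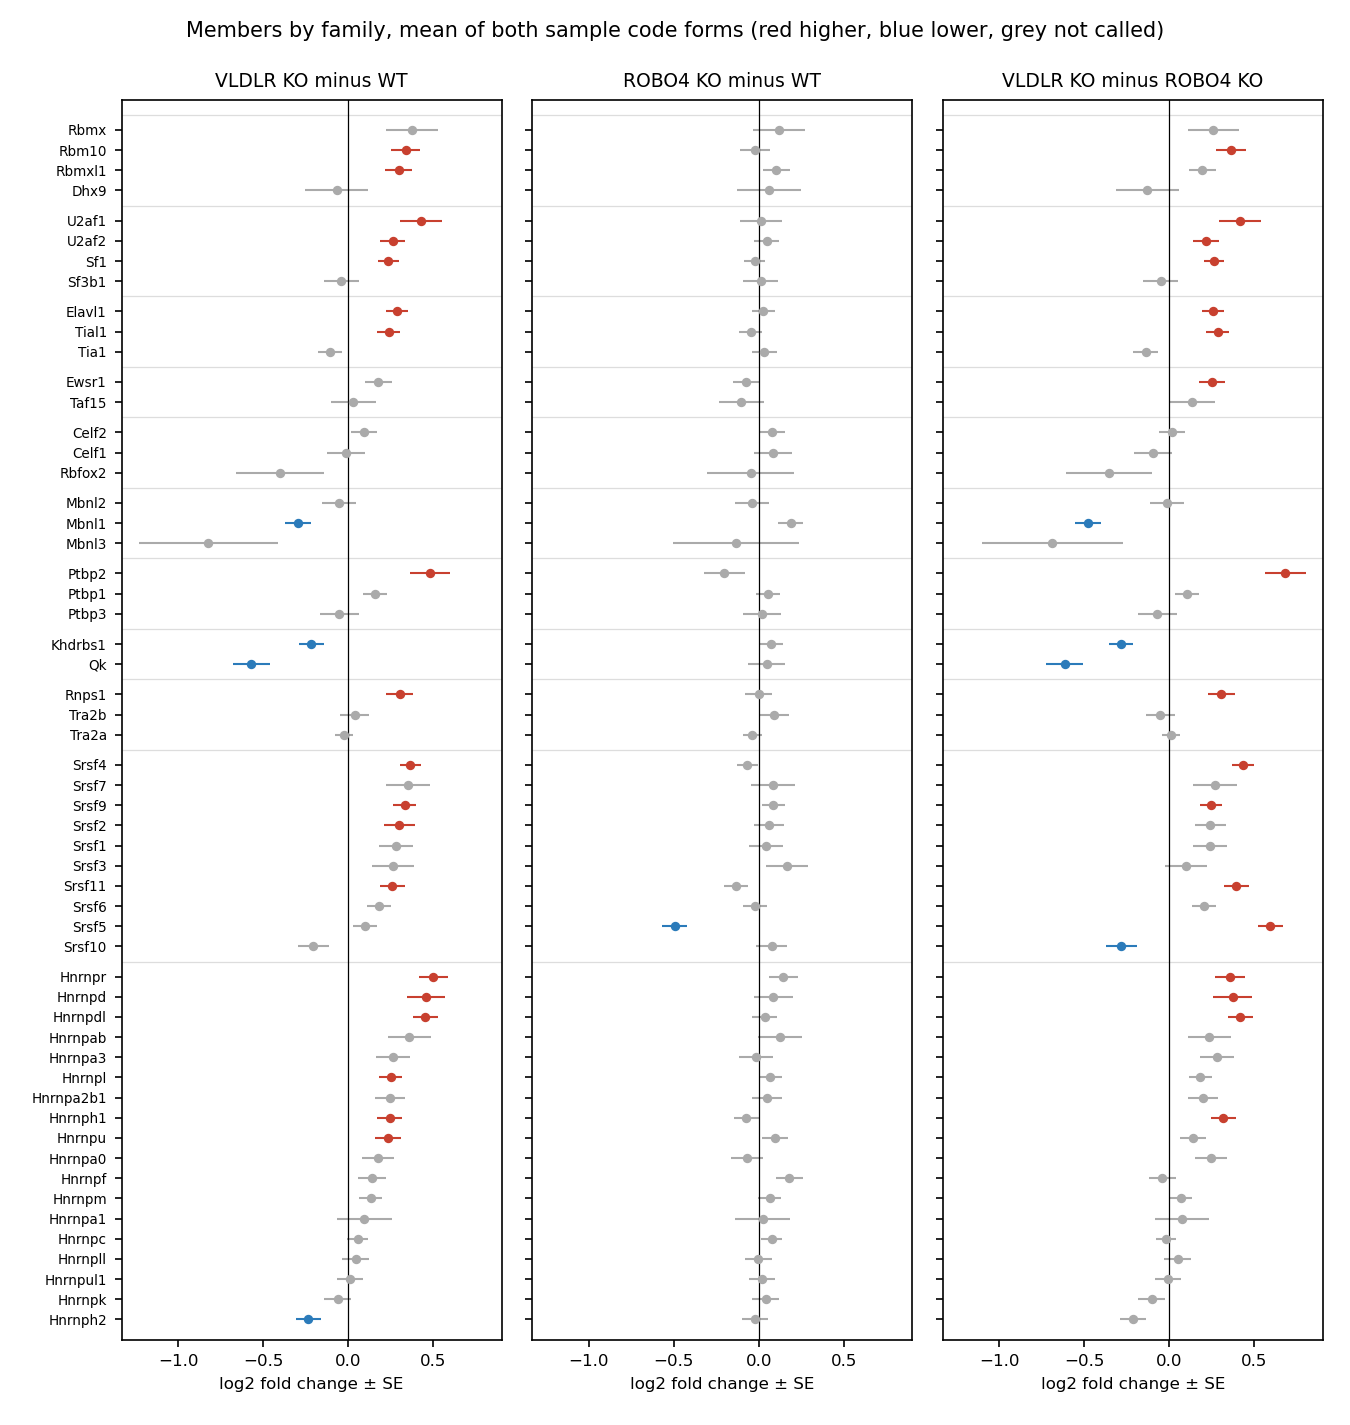
Log2 fold change of each tested member (point) with its standard error (bar) for 3 pairs of genotypes, as the mean of both sample code forms, with members grouped by family; red is called higher, blue called lower and grey not called. VLDLR_KO against WT has 19 red and 4 blue points, ROBO4_KO against WT 1 blue point (Srsf5), and VLDLR_KO against ROBO4_KO 17 red and 4 blue points.

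Qk (Entrez 19317, chromosome 17, minus strand, 10187543 to 10319361) had 280, 304, 235, 261 and 238 CPM in WT replicates 1 to 5, 285, 256, 292, 273 and 279 CPM in ROBO4_KO and 192, 120, 219, 216 and 188 CPM in VLDLR_KO. All VLDLR_KO libraries were below all WT and all ROBO4_KO libraries, and replicate 2 was lowest. The log2 fold change against WT was -0.57 (SE 0.11, adjusted p = 0.00212), and it stayed called under each of 24 alternatives, between -0.76 and -0.33. Within forms it was -0.65 before B (adjusted p = 0.00807) and -0.49 after B (adjusted p = 0.0473). Without VLDLR_KO replicate 2, the first became -0.35 (adjusted p = 0.0524) and the mean -0.42 (adjusted p = 0.00141). The call after B was lost without WT replicate 1 (adjusted p = 0.139) or 2 (adjusted p = 0.293) and without any other library apart from VLDLR_KO replicates 1 and 2. Without both of those WT libraries, the fit with additive terms gave -0.54 (adjusted p = 0.0479).

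Mbnl1, which binds CUG repeats and regulates the splicing of muscle and blood cell transcripts, had 602, 637, 423, 454 and 468 CPM in WT, 580, 586, 616, 604 and 634 CPM in ROBO4_KO and 416, 331, 534, 448 and 507 CPM in VLDLR_KO. Within each form the VLDLR_KO libraries were below WT, but across forms they overlapped, since WT replicates 1 and 2 were high. Mbnl1 fell by 0.29 on the log2 scale (SE 0.076, adjusted p = 0.0137), and was not called within either form (adjusted p = 0.0759 and 0.0647) or without WT replicates 1 and 2 (-0.16, adjusted p = 0.395). Khdrbs1, encoding SAM68, a STAR protein that responds to signalling kinases, had 111, 114, 130, 135 and 134 CPM in WT and 112, 91.7, 120, 102 and 107 CPM in VLDLR_KO. It was below WT in both libraries before B (-0.39, adjusted p = 0.0117), while libraries after B overlapped (-0.04, adjusted p = 0.841), and the mean was -0.22 (adjusted p = 0.0404), or -0.30 without WT replicates 1 and 2 (adjusted p = 0.107). Hnrnph2, a binder of G-rich runs, fell by 0.23 (adjusted p = 0.0369) with libraries apart in both forms, and was at -0.16 without WT replicates 1 and 2 (adjusted p = 0.358).

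Among hnRNP genes that rose against WT as the mean of both forms, the smallest p was that of Hnrnpdl, an AU-rich element binder. Hnrnpdl had 84.0, 86.9, 96.5, 86.0 and 85.8 CPM in WT, 97.6, 93.3, 76.3, 82.8 and 93.3 CPM in ROBO4_KO and 120, 121, 128, 107 and 122 CPM in VLDLR_KO. Every VLDLR_KO library was above every library of the other genotypes. The difference from WT was 0.45 (SE 0.073, adjusted p = 0.000653), and 0.43 before B and 0.48 after B (adjusted p = 0.00747 and 0.00916). Hnrnpr, which binds messages in nucleus and axons, had 60.7, 57.7, 58.5, 66.0 and 60.0 CPM in WT, 68.1, 67.2, 61.6, 66.8 and 69.2 CPM in ROBO4_KO and 84.5, 71.6, 109, 80.5 and 91.1 CPM in VLDLR_KO. Again no VLDLR_KO library overlapped the others, and VLDLR_KO replicate 3 was highest. It rose by 0.50 (SE 0.086, adjusted p = 0.00110), by 0.34 before B (adjusted p = 0.0441) and by 0.66 after B (adjusted p = 0.00361).

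Hnrnpd encodes AUF1, which speeds the decay of AU-rich messages, and had 66.6, 68.3, 71.1, 72.1 and 74.8 CPM in WT and 97.7, 85.4, 125, 81.5 and 96.7 CPM in VLDLR_KO, with no overlap. Its rise was 0.46 (SE 0.11, adjusted p = 0.0108), lost when WT replicates 1 and 2 were left out (0.38, adjusted p = 0.13). Hnrnpl, a binder of CA repeats, rose by 0.25 (adjusted p = 0.0158), Hnrnph1 by 0.25 (adjusted p = 0.0300) and Hnrnpu, a chromatin-bound scaffold protein, by 0.24 (adjusted p = 0.0387). Without WT replicates 1 and 2 these were 0.26, 0.32 and 0.15, and none was called (adjusted p = 0.0946, 0.0847 and 0.404). The most abundant hnRNP genes were not called, with -0.06 for Hnrnpk and 0.14 for Hnrnpf. VLDLR_KO replicate 2 had the lowest Hnrnpk of all libraries, at 359 CPM.

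Of the SR genes, Srsf4 had the smallest p against WT as the mean of both forms. Srsf4 had 41.3, 42.2, 40.5, 41.1 and 36.9 CPM in WT, 38.3, 36.4, 36.6, 42.1 and 42.2 CPM in ROBO4_KO and 52.0, 54.3, 51.2, 50.3 and 53.3 CPM in VLDLR_KO. All 5 VLDLR_KO libraries were above all others. The rise was 0.37 (SE 0.064, adjusted p = 0.00118), called in both forms (0.43 and 0.31) and under each of 24 alternatives. Srsf9, a short SR protein, had 34.3, 32.7, 35.4, 32.4 and 36.2 CPM in WT and 41.8, 48.6, 40.4, 39.1 and 42.9 CPM in VLDLR_KO, without overlap. It rose by 0.33 (SE 0.067, adjusted p = 0.00299), and by 0.28 without WT replicates 1 and 2, no longer called (adjusted p = 0.120).

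Srsf11 and Srsf2 were called in different forms. Srsf11, a U2AF-associated SR protein, had 139, 156, 129, 128 and 141 CPM in WT and 171, 194, 171, 145 and 145 CPM in VLDLR_KO. Its rise was 0.46 before B (adjusted p = 0.00492) and 0.06 after B (adjusted p = 0.754), where libraries overlapped. Srsf2, which encodes SC35, a marker of nuclear speckles, had 125, 126, 176, 181 and 186 CPM in WT and 189, 178, 218, 157 and 189 CPM in VLDLR_KO. It was 0.02 before B (adjusted p = 0.906) and rose by 0.58 after B (adjusted p = 0.00980), where its WT libraries were the 2 lowest of that genotype; the call after B was lost without either of them. The test of the difference between forms was not called for either gene (adjusted p = 0.0758 and 0.0546).

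Regulators of other families that rose included Elavl1, encoding HuR, which stabilises AU-rich messages. Elavl1 had 64.9, 66.3, 66.1, 66.9 and 73.9 CPM in WT and 80.1, 91.2, 84.3, 72.5 and 78.9 CPM in VLDLR_KO, overlapping in WT replicate 5 and VLDLR_KO replicate 4, which have different forms. Its rise was 0.29 (SE 0.066, adjusted p = 0.00685), and 0.29 without WT replicates 1 and 2 (adjusted p = 0.0612). Ptbp2, the neuronal homologue of the polypyrimidine tract binder Ptbp1, had 15.1, 18.9, 11.4, 12.2 and 10.4 CPM in WT, 13.6, 13.4, 9.90, 11.8 and 10.6 CPM in ROBO4_KO and 20.7, 17.4, 24.2, 16.6 and 18.4 CPM in VLDLR_KO. WT replicates 1 and 2 were the high WT libraries, and VLDLR_KO overlapped them. Ptbp2 rose by 0.48 (SE 0.12, adjusted p = 0.0107), by 0.75 before B (adjusted p = 0.00553), and by 0.86 without WT replicates 1 and 2 (adjusted p = 0.00615), while without WT replicate 1 alone the call was lost (adjusted p = 0.0609). Of the recognition factors of the 3′ splice site, Sf1 rose by 0.24 (adjusted p = 0.0118), U2af2 by 0.26 (adjusted p = 0.0205) and U2af1 by 0.43 (adjusted p = 0.0235), and Sf3b1 was at -0.04, not called. Without WT replicates 1 and 2, Sf1 was at 0.22, U2af2 at 0.19 and U2af1 at 0.41, and none was called (adjusted p = 0.121, 0.257 and 0.134).

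**Figure D2:**
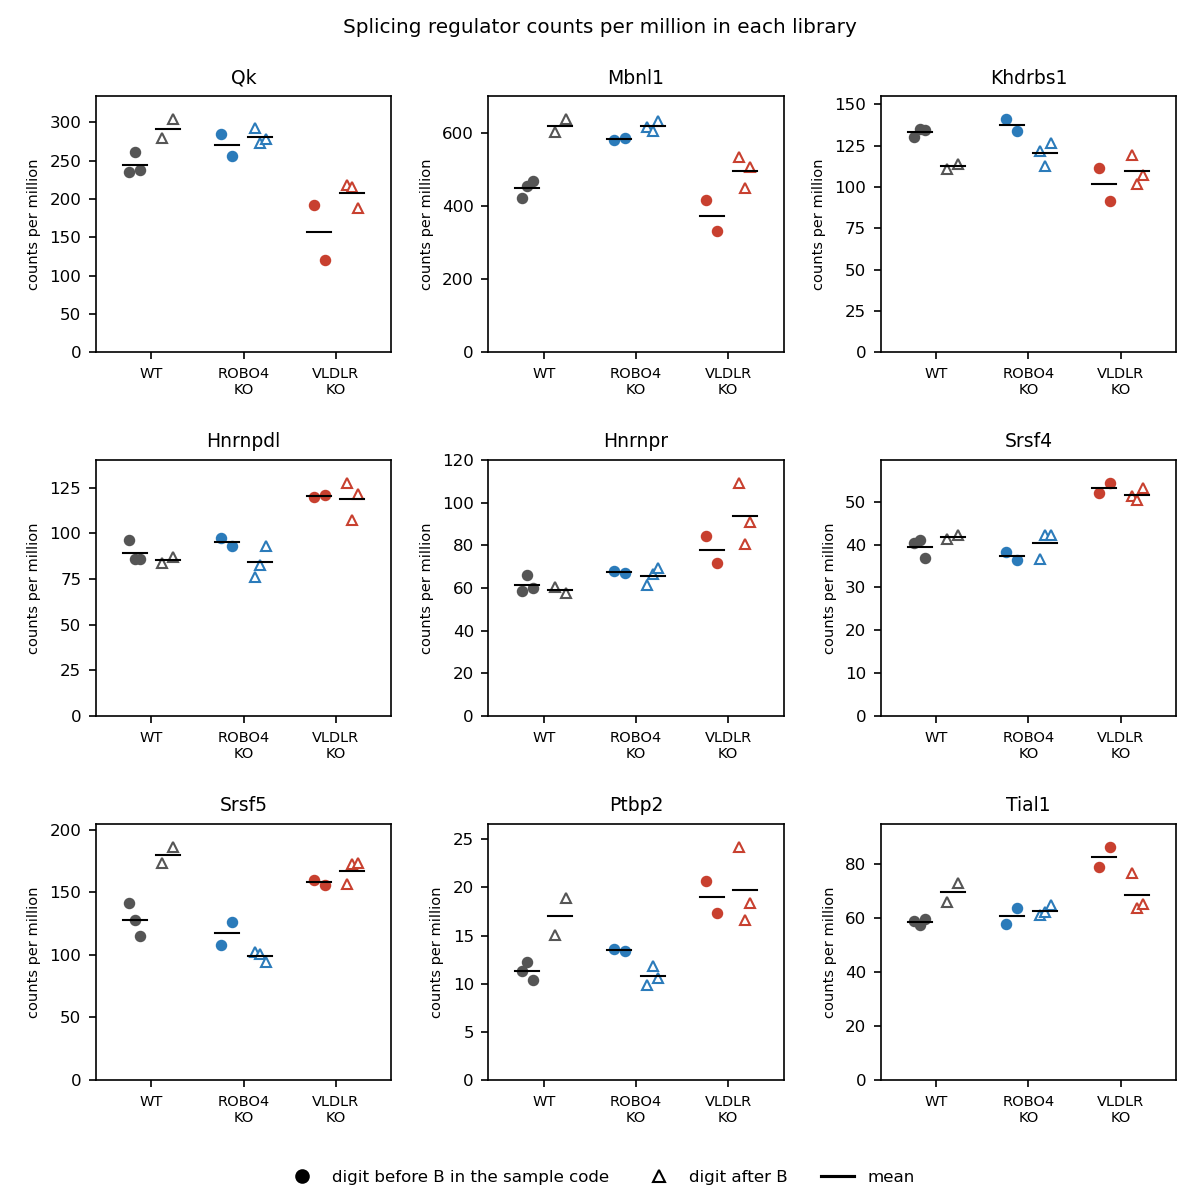
CPM (vertical axes, from 0) of 9 splicing regulators in each of 15 libraries, by genotype, with filled circles for the digit before B in the sample code, open triangles for the digit after B and bars for the mean of each genotype and form. Qk lies lower in all 5 VLDLR_KO libraries than in any other, Hnrnpdl, Hnrnpr and Srsf4 higher, and Srsf5 lies at 93.9 to 103 CPM in ROBO4_KO with the digit after B.

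Among libraries with the digit before B, 11 members rose and 5 fell in VLDLR_KO (20 at an unadjusted p under 0.05), where 33.2% of all genes were called, 17.6% higher and 15.6% lower. Besides those described above, Srsf5 rose (0.30), and Srsf10 (-0.40), Rbfox2 (-1.11) and Mbnl3 (-1.89) fell, the last 2 at levels under 8 CPM. In the same libraries fibroblast markers summed to 2.89 to 20.7 CPM in VLDLR_KO against 51.3 to 217 CPM in WT, and mast cell and basophil markers to 2.2 to 4.25 CPM against 21.1 to 27.5 CPM, and the part of such cells in these falls was not tested. After B, 13 rose and 1 fell (31 at an unadjusted p under 0.05), where 13.4% of all genes were called, 5.94% higher and 7.43% lower. They included Hnrnpab (0.69), Srsf1 (0.52), Srsf7 (0.67) and Rbmx (0.80), which shares near-identical sequence with Rbmxl1 (0.43), so the split of reads between those 2 is uncertain. The count after B rested on single libraries, with 1 call left without WT replicate 1, 0 without WT replicate 2, 3 without VLDLR_KO replicate 3 or 5, and 22 to 24 without VLDLR_KO replicate 1, 2 or 4. Before B it was 6 without VLDLR_KO replicate 2, 9 without WT replicate 3 and 10 without WT replicate 4.

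The difference between forms was itself called for Tial1, where 14.5% of all genes were called, 6.57% higher and 7.93% lower (16 members had an unadjusted p under 0.05, and DESeq2 called 6). Tial1 encodes TIAR, a stress granule protein that also promotes the use of weak 5′ splice sites. Tial1 had 66.1, 73.0, 58.9, 57.4 and 59.6 CPM in WT, 57.9, 63.9, 61.1, 62.5 and 64.8 CPM in ROBO4_KO and 79.1, 86.4, 76.7, 63.8 and 65.4 CPM in VLDLR_KO. Before B both VLDLR_KO libraries were above WT (0.50, SE 0.096, adjusted p = 0.00236), and after B the libraries overlapped (-0.02, adjusted p = 0.924). The difference was -0.51 (SE 0.14, adjusted p = 0.0267), and was not called without WT replicate 1, 2, 3 or 4 or VLDLR_KO replicate 2 or 5. The number of members with a called difference was 16 without VLDLR_KO replicate 1, 9 without VLDLR_KO replicate 4, 4 without ROBO4_KO replicate 3 and 2 without WT replicate 5 or VLDLR_KO replicate 3. Shares of all genes in these fits are not given, so these counts are not read as particular to the members.

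**Figure D3:**
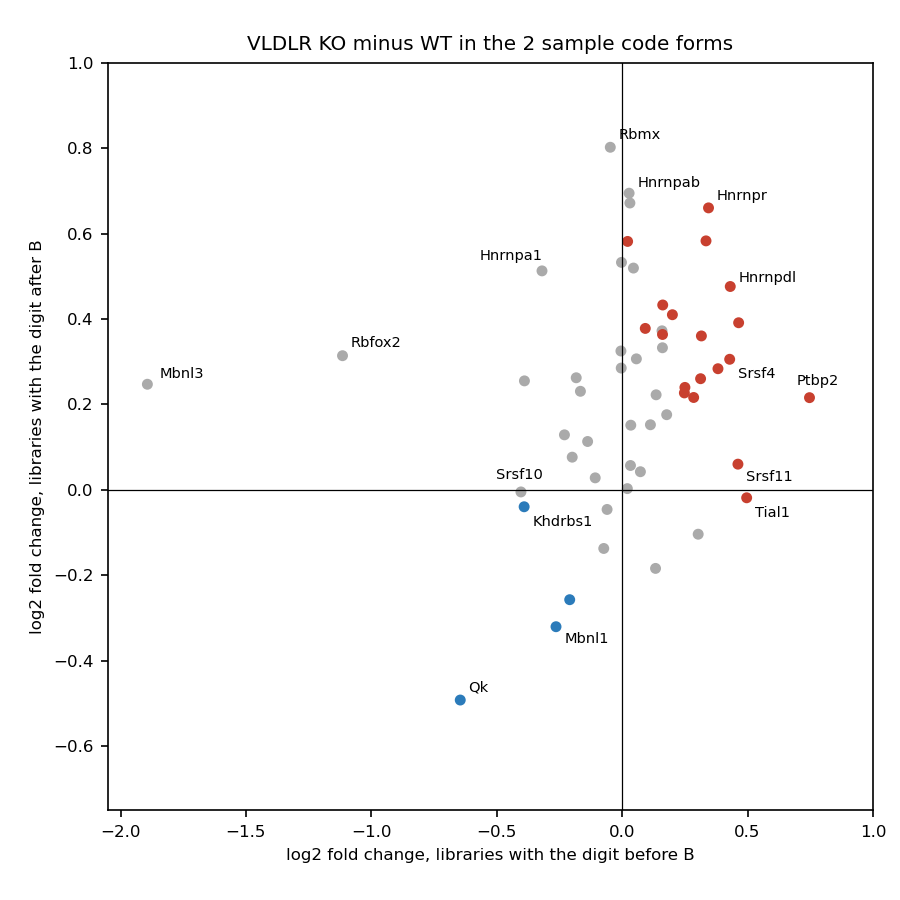
Log2 fold change of VLDLR_KO against WT for 55 members among libraries with the digit before B (horizontal axis) and after B (vertical axis), with red for members called higher, blue for called lower and grey for not called as the mean of both forms. Qk, Mbnl1, Khdrbs1 and Hnrnph2 are blue in the lower left, and Tial1 lies at 0.50 before B and -0.02 after B.

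Cell-cycle genes also differed between these libraries. A list of 20 such genes, chosen after the data were seen, had a mean log2 level, relative to the mean of the 15 libraries, of 1.49, 0.50 and 1.45 in VLDLR_KO replicates 3 to 5 against 0.55 and 0.14 in WT replicates 1 and 2. Before B the order was the other way, at -1.43 and -1.65 in VLDLR_KO against -0.56 to -0.53 in WT. The 55 regulators had a mean log2 level of 0.32, 0.02 and 0.19 in VLDLR_KO replicates 3 to 5 and 0.04 and -0.12 in replicates 1 and 2, against -0.07 to -0.04 in WT. ROBO4_KO replicate 3 was lowest, at -0.19, and the other ROBO4_KO libraries lay between -0.03 and 0.07. The part of the cell cycle and of the macrophage markers in the differences of these genes was not tested.

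**Figure D4:**
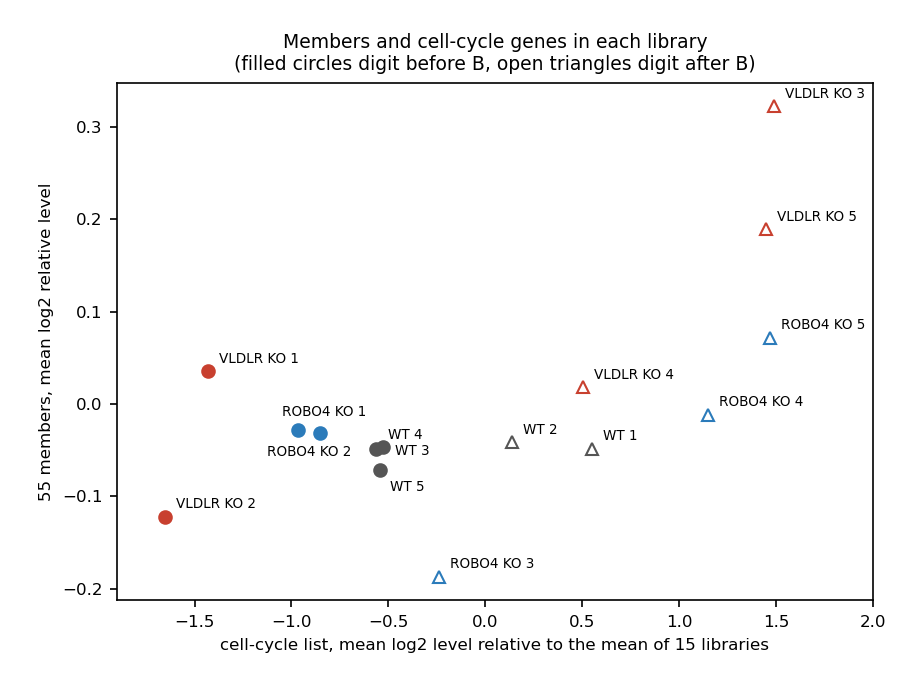
Mean log2 level of 55 splicing regulators (vertical axis) against that of 20 cell-cycle genes (horizontal axis) in each library, both relative to the mean of 15 libraries, with filled circles for the digit before B and open triangles for the digit after B. VLDLR_KO replicates 3 and 5 are highest on the vertical axis, at 0.32 and 0.19, and VLDLR_KO replicates 1 and 2 are lowest on the horizontal axis.

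In macrophages lacking ROBO4 these genes stood close to WT, and Srsf5 was lower. As the mean of both forms, 1 member fell and 0 rose (3 at an unadjusted p under 0.05), where 1.63% of all genes were called, 0.607% higher and 1.02% lower, and the median log2 fold change was 0.04. After B the same gene was called (1.59% of all genes were, 0.369% higher and 1.22% lower), and before B 0 members were called by edgeR (1 at an unadjusted p under 0.05, 1 by DESeq2), with 0.328% of all genes called. Libraries were apart in both forms for 3 members on the higher side and 0 on the lower side, where 3.53% and 3.25% of all genes were. Qk differed from WT by 0.05 (SE 0.11, adjusted p = 0.975), and Mbnl1 by 0.19 (SE 0.076, adjusted p = 0.437). No member was called by edgeR for a difference between forms (5 at an unadjusted p under 0.05, 1 by DESeq2, 0.385% of all genes called, 0.00820% higher and 0.377% lower).

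Srsf5, an SR protein whose message responds to growth signals, had 174, 186, 141, 128 and 115 CPM in WT, 108, 126, 103, 100 and 93.9 CPM in ROBO4_KO and 160, 156, 156, 172 and 173 CPM in VLDLR_KO. Its highest values were in WT replicates 1 and 2, and before B the libraries of WT and ROBO4_KO overlapped. Srsf5 fell by 0.86 after B (SE 0.10, adjusted p = 0.000319) and by 0.49 as the mean (SE 0.073, adjusted p = 0.00209), and was at -0.13 before B (adjusted p = 0.999). Without WT replicates 1 and 2, the fit with additive terms gave -0.22 (adjusted p = 0.861). These are the libraries with high Fos, whose part in the Srsf5 level was not tested.

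VLDLR_KO and ROBO4_KO were also compared directly, with libraries shared with the comparisons against WT, and the WT libraries enter through the pooled spread. As the mean of both forms 17 members were higher in VLDLR_KO and 4 lower (30 at an unadjusted p under 0.05), or 38.2%, where 26.3% of all genes were called, 13.2% higher and 13.1% lower. Median log2 fold change was 0.18 over the members. Libraries were apart in both forms for 11 members on the higher side and 2 on the lower side, where 7.32% and 8.26% of all genes were. Leaving out VLDLR_KO replicate 2 left 20 calls, and ROBO4_KO replicate 1 left 13. Before B 9 were higher and 4 lower (29.6% of all genes called, 15.9% higher and 13.7% lower), and after B 11 were higher and 1 lower (11.9% of all genes called, 5.59% higher and 6.34% lower). Single libraries moved these counts, that before B to 24, 4, 3 and 8 without VLDLR_KO replicate 1, VLDLR_KO replicate 2, ROBO4_KO replicate 1 or ROBO4_KO replicate 2, and that after B to 19 without VLDLR_KO replicate 1, 2 or 4 and to 5 to 7 without VLDLR_KO replicate 3 or 5 or ROBO4_KO replicate 3 or 4. No member was called by edgeR for a difference between forms (10 at an unadjusted p under 0.05, 2 by DESeq2, 8.45% of all genes called, 3.97% higher and 4.48% lower), but 17 were without VLDLR_KO replicate 1 and 4 without VLDLR_KO replicate 4.

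Srsf5 had the smallest p here, higher by 0.59 in VLDLR_KO (SE 0.073, adjusted p = 7.5e-05), with every VLDLR_KO library above every ROBO4_KO library. Srsf4 was higher by 0.43 (adjusted p = 0.000344), Hnrnpdl by 0.42 (adjusted p = 0.00125) and Ptbp2 by 0.68 (adjusted p = 0.00130), again with no overlap. Mbnl1 was lower by 0.48 (SE 0.076, adjusted p = 0.000604), with the highest VLDLR_KO library at 534 CPM and the lowest ROBO4_KO library at 580 CPM. Qk was lower by 0.62 (SE 0.11, adjusted p = 0.00131), by 0.79 before B (adjusted p = 0.00551) and by 0.44 after B, where the p missed the threshold (adjusted p = 0.0537), and the mean was -0.47 without VLDLR_KO replicate 2 (adjusted p = 0.000721). Srsf11 was higher by 0.39 (adjusted p = 0.0017), and had 134, 138, 116, 114 and 126 CPM in ROBO4_KO. Sf1, which binds the branch point, had 137, 142, 152, 149 and 147 CPM in WT, 142, 143, 132, 138 and 153 CPM in ROBO4_KO and 175, 180, 170, 152 and 167 CPM in VLDLR_KO. It was higher by 0.26 (adjusted p = 0.007), although ROBO4_KO replicate 5 and VLDLR_KO replicate 4 overlapped. Ewsr1, a FET protein, was higher by 0.25 (adjusted p = 0.0330) and Srsf10, an SR protein that turns into a repressor on heat shock, lower by 0.28 (adjusted p = 0.0390).

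Averaged over the 3 genotypes, 15 members (27.27%) differed between the sample code forms (18 at an unadjusted p under 0.05). With the digit after B 12 were higher and 3 lower. That share was below the 45.6% of all genes called, 22.4% higher and 23.2% lower. Celf2, a regulator of T cell and neuronal exons, had 131 to 142 CPM in WT before B and 170 and 175 CPM after B, and 124 to 152 CPM against 179 to 208 CPM in VLDLR_KO. It was higher by 0.37 (SE 0.063, adjusted p = 0.000415), with libraries apart in all 3 genotypes. Ptbp1, the repressor that keeps neuronal exons out, was higher by 0.33 (adjusted p = 0.000616), Hnrnpm by 0.30 (adjusted p = 0.000788) and Mbnl1 by 0.32 (adjusted p = 0.00107). Mbnl1 had 423 to 468 CPM in WT before B and 602 and 637 CPM after B. In ROBO4_KO it had 580 and 586, then 604 to 634 CPM, and in VLDLR_KO 331 and 416, then 448 to 534 CPM. Rbfox2, which binds GCAUG and is typical of muscle, nerve and stromal cells, was lower by 1.15 (adjusted p = 0.000658), with 3.14 to 7.20 CPM in WT before B and 1.29 and 1.43 CPM after B. Its highest values, 7.20 and 4.75 CPM, were in WT replicate 3 and ROBO4_KO replicate 2, the libraries with the highest fibroblast markers (217 and 184 CPM, 2.89 to 76.1 in the others), and the part of such cells was not tested. Without WT replicates 1 and 2, in additive terms, 9 members were called, and Mbnl1 was not (adjusted p = 0.0623). The share of all genes in that fit is not given, so the 9 are not read as particular to the members.

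Transcripts were tested for 335 of the 393 of these genes, from 1 to 34 per gene. VLDLR_KO differed from WT in 16, 11 higher and 5 lower, in 11 genes (74 at an unadjusted p under 0.05), where 4.06% of 36240 transcripts were called. ROBO4_KO differed from WT in 0 by edgeR (26 at an unadjusted p under 0.05, 0.235% of all transcripts called), and VLDLR_KO from ROBO4_KO in 16, 9 higher and 7 lower (59 at an unadjusted p under 0.05, 4.21% of all called). Counts of transcripts are estimates shared out among isoforms by the authors' quantifier, with 48.33% whole numbers. In simulated counts the test recovered 0% of transcripts changed 1.5-fold and 22.39% of those changed 2-fold. A transcript that was not called may therefore still differ. The count against WT was 51 without VLDLR_KO replicate 1, and 7 and 8 without WT replicates 1 and 2, and that against ROBO4_KO was 53 without VLDLR_KO replicate 1 and 8, 9 and 10 without ROBO4_KO replicates 2, 1 and 4.

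Qk had 3 curated transcripts above 3 CPM in every library. NM_001159516.1, the most abundant, had 156, 168, 128, 150 and 146 CPM in WT, 160, 147, 174, 162 and 167 CPM in ROBO4_KO and 104, 74.5, 104, 111 and 87.3 CPM in VLDLR_KO. NM_021881.2 had 23.9, 20.0, 20.9, 20.7 and 17.2 CPM in WT, 18.5, 17.8, 24.6, 22.6 and 18 CPM in ROBO4_KO and 8.36, 3.13, 11.2, 10.9 and 10.5 CPM in VLDLR_KO. For both, all VLDLR_KO libraries were below all others, with log2 fold changes against WT of -0.68 (SE 0.10, adjusted p = 0.00260) and -1.39 (SE 0.23, adjusted p = 0.00478). NM_001159517.1 had 89.7, 107, 77.5, 78.9 and 70.6 CPM in WT and 73.3, 39.2, 95.9, 77.0 and 78.5 CPM in VLDLR_KO, which overlap, and it was at -0.33 (SE 0.15, adjusted p = 0.286). Without VLDLR_KO replicate 2 the 3 values were -0.56, -1.12 and -0.14, and the first and second stayed called. Against ROBO4_KO they were -0.76 (adjusted p = 0.00128), -1.33 (adjusted p = 0.00652) and -0.31 (adjusted p = 0.308).

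Among the other regulators, transcripts called in VLDLR_KO against WT included XM_011249510.1 of Hnrnpdl (0.62, adjusted p = 0.00162), NM_020587.2 of Srsf4 (0.39, adjusted p = 0.0136) and NM_001253713.2 of Mbnl1 (-0.56, adjusted p = 0.0178). Against ROBO4_KO, NM_001253713.2 was lower by 0.89 (adjusted p = 0.001), with 55.3, 33.8, 75.2, 74.6 and 84.7 CPM in VLDLR_KO and 104 to 119 CPM in ROBO4_KO. NM_001079694.1 of Srsf5 was higher than in ROBO4_KO by 0.52 (adjusted p = 0.00974), and XM_006501774.2 of Mbnl1 lower by 0.74 (adjusted p = 0.00768).

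A few of these regulators were called for unequal change among their transcripts, as were 0.780% to 7.83% of all genes. The test of edgeR, diffSpliceDGE, called 3 of 52 members with at least 2 tested transcripts in VLDLR_KO against WT (3.88% of all genes called), 1 in ROBO4_KO against WT (0.780%) and 5 in VLDLR_KO against ROBO4_KO (4.53%). In simulated counts 23 of the 36 genes called by this test were unchanged, so its counts and shares may include many false calls. For this reason limma's diffSplice was added after the data were seen. In the same 3 pairs limma called 5 (6.65% of all genes), 0 (1.21%, 10 members at an unadjusted p under 0.05) and 5 (7.83%). It called 0 unchanged genes in the simulated counts. Both tests called Srsf1, Hnrnpu and Khdrbs1 against WT, and Srsf1, Hnrnpu and Tial1 against ROBO4_KO. No member was called by both tests in ROBO4_KO against WT. Of 163 genes changed in the simulated counts limma called 14, so unequal change may be missed. The limma count against WT was 3 to 14 over the fits without 1 library, 14 without VLDLR_KO replicate 1, where calls over all genes rose from 520 to 1294 (16.5%), and that of edgeR 12 without the same library.

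Srsf1 encodes the SR protein SF2/ASF, which represses its own message through introns of its 3′ part. Its transcript NM_173374.4 held 84.6%, 85.4%, 74.1%, 77.4% and 77.7% of the gene's counts in WT, 73.9%, 77.5%, 80.1%, 79.5% and 82.0% in ROBO4_KO and 47.9%, 49.3%, 78.9%, 76.4% and 80.2% in VLDLR_KO. The low libraries were VLDLR_KO replicates 1 and 2, both before B. In them NM_001078167.2 held 40.1% and 36.3%, against 18.3% to 20.7% in WT before B, and the noncoding XR_388324.3 12% and 14.4%, against 3.83% to 5.23%. After B, NM_001078167.2 held 16.8% to 21.2% in VLDLR_KO and 13.1% and 13.5% in WT, so the groups were apart there too, by less. By limma the adjusted p was 2.15e-05 against WT and 0.000182 against ROBO4_KO. NM_001078167.2 itself was higher than in WT by 1.0 on the log2 scale (SE 0.11, adjusted p = 0.000368) and XR_388324.3 by 1.46 (SE 0.25, adjusted p = 0.00767).

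Hnrnpu showed a like shift before B. NM_016805.2 held 85.9%, 84.8%, 57.6%, 58.6% and 56.1% of its counts in WT, 57.7%, 58.4%, 71.6%, 71.3% and 75.6% in ROBO4_KO and 43.0%, 43.1%, 66.3%, 69.3% and 71.0% in VLDLR_KO. The predicted XM_017321674.1 held 5.23%, 6.34%, 19.1%, 17.9% and 22.4% in WT and 29.1%, 45.3%, 12.7%, 12.8% and 10.2% in VLDLR_KO. VLDLR_KO was above WT within each form, and the form itself separated the libraries of all 3 genotypes. XM_017321674.1 was higher than in WT by 1.18 (SE 0.13, adjusted p = 0.000317), and by 1.08 without VLDLR_KO replicate 2 (adjusted p = 0.00119), and the limma p for the gene was 0.000259.

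Khdrbs1 had a noncoding transcript, XR_001784112.1, at 6.16%, 9.33%, 8.71%, 7.55% and 7.38% of its counts in WT, 6.09%, 5.72%, 5.43%, 7.50% and 6.96% in ROBO4_KO and 5.69%, 4.59%, 3.38%, 3.01% and 2.99% in VLDLR_KO. All VLDLR_KO libraries were below all WT libraries, and the transcript fell by 1.18 (SE 0.20, adjusted p = 0.00712, and for the gene by limma adjusted p = 0.00508). VLDLR_KO and ROBO4_KO overlapped, and between them the gene was not called (adjusted p = 0.548 by edgeR and 0.230 by limma). In ROBO4_KO against WT the gene was called by edgeR (adjusted p = 0.03275) and not by limma (adjusted p = 0.342). For Tial1, the predicted XM_017322108.1 held 10.4%, 13.9%, 11.3%, 13.6% and 9.38% in VLDLR_KO against 3.38%, 3.90%, 7.25%, 2.47% and 1.07% in ROBO4_KO, with no overlap. It held 8.54% and 9.72% in WT replicates 1 and 2 and 3.38% to 4.92% in the other WT libraries. The transcript was higher than in ROBO4_KO by 1.96 (SE 0.43, adjusted p = 0.0277), at levels of 0.705 to 11.7 CPM, and the gene had a limma p of 8.16e-05. Shares of Qk differed between VLDLR_KO and ROBO4_KO by limma (adjusted p = 0.0347) and not by edgeR (adjusted p = 0.203). NM_021881.2 held 2.66% to 5.54% of Qk counts in VLDLR_KO and 6.38% to 8.85% in the other libraries.

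**Figure D5:**
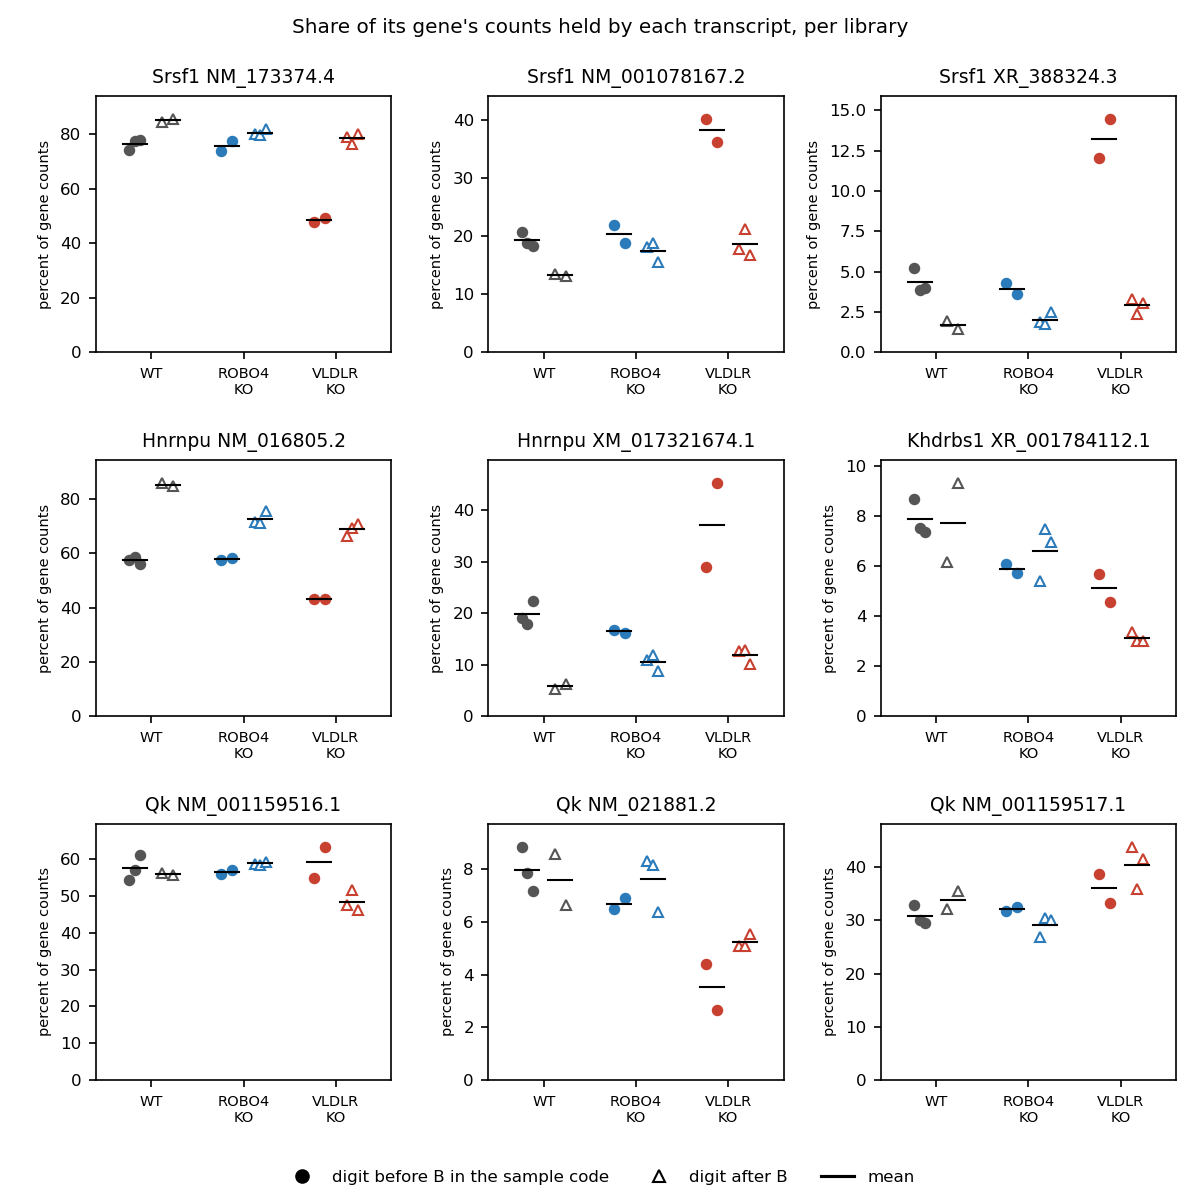
Share of its gene's counts held by each of 9 transcripts, in percent (vertical axes, from 0), in each of 15 libraries by genotype, with filled circles for the digit before B, open triangles for the digit after B and bars for the mean of each genotype and form. NM_173374.4 of Srsf1 lies at 47.9% and 49.3% in VLDLR_KO replicates 1 and 2 and at 73.9% or more in all other libraries.

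Other genes of the splicing machinery were read from lists of the pathway. The nuclear entry and activity of SR proteins depend on kinases, of which Clk1 (0.25, adjusted p = 0.0245) and Clk2 (0.35, adjusted p = 0.0309) rose in VLDLR_KO against WT, as did the phosphatase Ppp1cc (0.40, adjusted p = 0.000104), while Srpk3 fell (-1.29, adjusted p = 0.0314), 3 higher and 1 lower of 11. Of U1 and U2 snRNP genes 8 of 18 rose and 0 fell, among them Luc7l3 (0.58), Snrnp70 (0.35) and Snrpa1 (0.61). Sm and LSm genes, which form the rings around spliceosomal RNAs, rose in 9 of 14, with the smallest p values for Lsm2 (0.61), Snrpd3 (0.33) and Snrpb (0.40) and a list median of 0.44. In the tri-snRNP and catalytic list 3 of 25 rose (Prpf19, Dhx16 and Xab2), 0 fell, and the median was 0.06. Genes of nonsense-mediated decay rose in 7 of 10, with Smg5 at 0.56, Upf1 at 0.41 and Smg9 at 0.73. Of 41 other splicing regulators 8 rose and 3 fell, including Raver1 (0.47), Khsrp (-0.48) and Fxr1 (-0.27). All of these are the mean of both forms, read against the 12.4% of all genes called higher and 13.6% called lower. Of the 11 genes of the kinase list, 5 were higher before B (list median 0.35), where 17.6% of all genes were. After B 2 were higher (list median -0.016), where 5.94% of all genes were. The difference between forms was called, and negative, for 4 of the 11, where 7.93% of all genes were called lower. Of the 14 Sm and LSm genes, 6 were higher before B and 1 after B, and the difference was called for 0. Without WT replicates 1 and 2, 2 of 11, 1 of 18, 0 of 14, 1 of 25, 4 of 10 and 4 of 41 genes of these lists were higher and 1 of the 41 lower (edgeR with additive terms, counted after the data were seen), where 5.31% of all genes were higher and 5.54% lower, and the Sm and LSm median was 0.39, or 0.03 when VLDLR_KO replicate 2 was left out as well.

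In VLDLR_KO against ROBO4_KO the same lists had, in that order, 3 higher and 1 lower of 11, 7 and 0 of 18, 4 and 0 of 14, 5 and 1 of 25, 5 and 1 of 10, and 8 and 4 of 41, where 13.2% of all genes were higher and 13.1% lower. In ROBO4_KO against WT the list medians lay between -0.03 and 0.09.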

How the data were processed

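Total RNA from cultured bone macrophages was sequenced as paired-end libraries on a BGISEQ-500 after TRIzol extraction and a SMARTER mRNA-Seq preparation, per the labels. The submitters' processing notes list HISAT, Bowtie2 and the build GRCm38.p6, without versions or roles, and the quantifier is not given in the sources used here. The deposited tables held expected counts (estimated counts) per gene and transcript, made by the authors without normalization, of which 92.63% and 48.33% were whole. Further deposited columns held FPKM by the authors. That unit is inferred, because within a gene the ratio of count to value followed the library totals to within 0.97%.

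Counts were rounded and fitted in R 4.3.3 with edgeR 4.0.16 (filterByExpr, TMM scaling, quasi-likelihood F tests, two-sided), with 6 coefficients for 3 genotypes in 2 code forms over all 15 libraries. Benjamini-Hochberg adjustment ran over all 12198 genes or 36240 transcripts tested, and every adjusted p of a gene or transcript is from this fit unless another tool is named. Groups within a form hold 2 or 3 libraries, and the spread is pooled over all groups. CPM were scaled by TMM, and SE is the log2 fold change divided by the square root of F. Unequal change of transcripts was tested with diffSpliceDGE and, added later, with diffSplice in limma 3.58.1. The alternatives covered scaling, filtering, DESeq2 1.42.0, other designs and leaving out each library. The scripts were tested on simulated data. Chi-square per degree of freedom between libraries of 1 group and form was 5.923 to 92.56, so no library was a copy of another and spread exceeded counting error.

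The members and gene lists were chosen with earlier results of these data known. Values in every library of the groups compared are given for Qk. They are also given for the up to 8 called members with the smallest adjusted p per pair of genotypes. The same holds for up to 3 per comparison within a form and per difference between forms. Of the form effect up to 5 were named, some with ranges or fold changes only. Transcripts were named by the same rule (up to 8 per pair), some with fold changes only, and lists of the pathway up to 3 genes each. Apart from the form effect, Mbnl1 and Khdrbs1 against WT, and other members named with fold changes only, were chosen after their values were seen.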

Additional observations from a re-analysis of the deposited data

Results flagged for a closer look

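Hnrnpdl had a high WT library, replicate 3 at 96.47 CPM, far above the other 4 WT libraries (84.0 to 86.9 CPM), and still below the lowest VLDLR_KO library. Elavl1 likewise had 73.9 CPM in WT replicate 5 against 64.9 to 66.9 CPM in the other 4, which is above the lowest VLDLR_KO library. A library was marked where its gap to the nearest other library, divided by the range of the 5, exceeded Dixon's critical value at the 95% level. Of 54 sets of 5 libraries examined, 2 were marked, and chance marks about 1 in 20. Tial1 was marked because its difference between VLDLR_KO and WT differed between the sample code forms (after B minus before B -0.5148, adjusted p = 0.0267 by edgeR). What set these values apart was not tested.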

How the results depend on the processing

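Counts of members called, as reported and then under the alternatives that moved them by over 1.5 times, were as follows. For VLDLR_KO against WT, 16 before B became 7 with each form fitted alone and 8 with the code digits as a replicate block, and 14 after B became 4 with the block and 23 with DESeq2. The mean of both forms, 23, became 13 with genotype alone, 8 with additive terms and no WT libraries after B, and 8 when VLDLR_KO replicate 2 was also left out, an alternative chosen after seeing the data. The difference between forms, 1, became 2 with DESeq2 size factors, 2 with upper-quartile scaling, 0 with the block and 6 with DESeq2. For ROBO4_KO against WT, 0 before B became 1 with DESeq2, 1 after B became 2 with DESeq2, the mean, 1, became 0 with additive terms, with genotype alone and in both fits without WT after B, and the difference, 0, became 1 with DESeq2. For VLDLR_KO against ROBO4_KO, 13 before B became 4 with each form fitted alone and 2 with the block, the mean, 21, became 13 with genotype alone and 10 with the block, and the difference, 0, became 2 with DESeq2. The form effect, 15, became 9 with additive terms and no WT after B. Called transcripts against WT, 16, became 10 with additive terms. Members with unequal transcripts became 5 from 3 with limma against WT, 0 from 1 with no filter, additive terms or limma in ROBO4_KO against WT, and 3 with no filter and 2 with additive terms from 5 in VLDLR_KO against ROBO4_KO. Fewer libraries or degrees of freedom enter the fits without WT libraries, with each form alone or with the block. What moved the counts in these or in the other fits was not tested. Unless stated above, shares of all genes in these fits are not given, so the moves are not read as particular to the members.

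Leaving out each library in turn gave, for VLDLR_KO against WT, 6 to 23 calls before B, 0 to 24 after B, 11 to 30 in the mean and 0 to 16 for the difference. For ROBO4_KO against WT it gave 0 before B, 1 to 2 after B, 1 in the mean and 0 to 1 for the difference, and for VLDLR_KO against ROBO4_KO 3 to 24, 5 to 19, 13 to 29 and 0 to 17. The form effect ranged from 10 to 19, called transcripts over the 3 pairs of genotypes from 7 to 51, 0 to 2 and 8 to 53, and members with unequal transcripts from 2 to 12, 0 to 2 and 1 to 14. The widest moves came without VLDLR_KO replicate 1 (differences 16 and 17, transcripts 51 and 53). Without that library limma's calls of unequal transcripts over all genes rose as well, from 520 to 1294 against WT. Shares of all genes are not given for the other counts, so the moves are not read as particular to the members.

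Of single values, those that changed sign were near 0 and not called: Qk in ROBO4_KO against WT after B (-0.111 to 0.0074 over the libraries left out) and in the mean with the block (-0.0070), and the Qk transcripts NM_021881.2 (-0.121 to 0.0043) and NM_001159517.1 (-0.0823 to 0.0465) in the same comparison. Of 1318 alternatives for single values, 905 with a library left out and 348 others kept the direction and side of the threshold, and 32 and 21 lost a call. The block rests on code digits, and whether these pair libraries is not settled. Of 12 pairs with the same digit, 4 had a correlation of deviations over 0.1, with a median of -0.145, against 0.12 in 25 other pairs. In groups of 2 libraries the deviations from the group mean mirror each other. The correlations are thus tied and cannot decide whether the digits pair libraries. At totals of 18132866 to 19005966 counts, genes under a few CPM, such as Mbnl3, Rbfox2 and Khdrbs3, are measured with few counts.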
